A study of Mus musculus with 24 samples.

Results

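The response to neonatal hypoxic-ischemic brain injury (HIBI) was compared between the right striatum/thalamus and the right cerebellum of the same CD1 mouse pups. The members were the 16 libraries of these 2 regions, from 4 HIBI and 4 sham pups, of 24 libraries in the series; the 8 cortex libraries were left out of the fit. At postnatal day 9 the 4 HIBI pups (pups 1, 4, 5 and 7) had the right common carotid artery cauterized under isoflurane with bupivacaine at the incision, recovered with the dam for 2 hours and were then kept for 30 min at 8% oxygen. The 4 sham pups (pups 2, 3, 6 and 8) had the same anesthesia, analgesia and neck dissection with no ligation and spent those 30 min away from the dam, in air. Tissue was frozen 30 min after the end of hypoxia or normoxia, and RNA was counted with the nCounter Mouse Neuroinflammation probes, where a molecule is caught by a probe that carries a fluorescent barcode and no amplification is used.

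The carotid artery feeds the forebrain, whereas the cerebellum receives most of its blood from the vertebral and basilar arteries. In this model the striatum and thalamus on the ligated side are thus deprived of both blood flow and oxygen, and the cerebellum mainly of oxygen. Low oxygen stabilizes hypoxia-inducible factors, which switch on glucose transport and vascular genes, while calcium entry and stress kinases switch on immediate early genes within minutes. Every HIBI pup had both the ligation and the hypoxia, the study had no group with hypoxia alone, and sham pups had neither, so which of the 2 acted on a gene cannot be told apart within a region. Pups of both sexes were used, and the sex of each pup was not used here.

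The comparison asked, gene by gene, whether HIBI moved the striatum/thalamus by another amount than the cerebellum of the same pup. It is called the interaction below: the log2 difference between the striatum/thalamus and the cerebellum of a pup, estimated with each pup as a block and compared between HIBI and sham pups, so that a positive value means a higher HIBI effect in the striatum/thalamus. The effects within a region came from separate fits of its 8 libraries with no block, so their difference need not equal the interaction, least of all in genes that varied widely among pups, such as Fos and Ttr. Levels are normalized counts, that is, raw counts scaled by library size with TMM factors. Total counts of the 16 libraries ranged from 855129 to 1134995, and 606 to 647 of the 757 endogenous genes lay above the mean plus 2 SD of the negative control probes, which was 29.5 to 43.5 counts. The striatum/thalamus libraries of HIBI pups were smaller than those of sham pups (exact permutation p = 0.0286, two-sided, the smallest that 4 against 4 allows), but the within-pup difference of the totals between regions was not shown to differ (exact permutation p = 0.314).

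The regional labels were checked against the few marker genes on the panel. Slc17a6, the vesicular glutamate transporter VGLUT2 of thalamic relay neurons, held 8181 to 14088 normalized counts in the striatum/thalamus and 2676 to 6325 in the cerebellum. The summed level of 3 cerebellum-marking genes (Eomes, Reln and Slc17a7) was 1443 to 2591 in the striatum/thalamus and 3548 to 6895 in the cerebellum. The regions did not overlap in either measure. The panel held none of the usual markers of striatal projection neurons, so the striatal share of the dissection was not checked.

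No gene passed the interaction at an adjusted p under 0.05: 0 of 740 genes tested (0%) in edgeR's quasi-likelihood test with each pup as a block. The smallest adjusted p was 0.0617, for Eomes and Slc17a6, and 7 genes lay under 0.1. At an unadjusted p under 0.05 there were 84 genes (11.4%), 40 with a positive and 44 with a negative interaction. limma-voom and limma on the within-pup differences also called 0 genes, with 91 and 87 at an unadjusted p under 0.05. DESeq2 called 15, of which 13 were among the 20 genes of smallest p in edgeR. The values below are therefore descriptions of genes that did not pass, unless a test within 1 region is named. Over all 740 genes the median interaction was 0.03 (log2), and the median standard error (SE) was 0.17.

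The 2 genes at the head of the order are both excitatory neuron genes that differ between the regions of a sham pup. Eomes, a T-box factor of the excitatory lineage that marks unipolar brush cells in the cerebellum, held 61.1, 73.1, 94.6 and 64.2 normalized counts in the striatum/thalamus of HIBI pups 1, 4, 5 and 7, against 39.3, 18.2, 27.9 and 38.9 in sham pups 2, 3, 6 and 8. In the cerebellum it held 192, 309.5, 219 and 520.1 in HIBI pups and 833, 545, 334 and 669.5 in sham pups. Every HIBI pup lay above every sham pup in the striatum/thalamus, and in the cerebellum HIBI pup 7 overlapped the sham pups. Eomes rose 2.35-fold in the striatum/thalamus (log2 1.23, SE 0.24, adjusted p = 0.0237) and had a log2 value of -0.94 (SE 0.34, adjusted p = 0.257) in the cerebellum. Its interaction was 2.24 (SE 0.39, 95% interval 1.38 to 3.10). In sham striatum/thalamus Eomes was at or below the background limit of 34.9 to 43.5 counts of those libraries, and with the mean of the negative controls subtracted the interaction was 3.43, so the size of the fold is uncertain.

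Slc17a6 went the other way. Its striatum/thalamus level was 9552, 10524, 8551 and 8181 in HIBI pups and 11645, 12931, 14088 and 13404 in sham pups. Its cerebellum level was 6325, 5139, 5586 and 4918 in HIBI pups and 2676, 3579, 5624 and 4687 in sham pups. The arms were apart in the striatum/thalamus, where the gene fell (log2 -0.49, SE 0.09, adjusted p = 0.0217), and overlapped in the cerebellum (log2 0.41, SE 0.21, adjusted p = 0.341). The interaction was -0.96 (SE 0.17, interval -1.33 to -0.59). In bulk tissue, fewer cells of a type and less RNA per cell cannot be told apart.

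For both genes the difference between the 2 regions of a pup was smaller in HIBI pups than in sham pups. The log2 level of Eomes in the striatum/thalamus minus that in the cerebellum was -1.64, -2.07, -1.20 and -3.00 in HIBI pups and -4.37, -4.83, -3.53 and -4.07 in sham pups. For Slc17a6 the difference was 0.59, 1.03, 0.61 and 0.73 in HIBI pups and 2.12, 1.85, 1.32 and 1.52 in sham pups. The 2 arms did not overlap in either gene, which choosing the genes by this same difference favours. The other cerebellum-marking genes had smaller values, 0.38 (SE 0.22) for Reln, a secreted guide of neuron migration, and 0.24 (SE 0.26) for Slc17a7, the transporter VGLUT1 of granule cells. The share of each region in the dissected tissue was not measured, and its part in these values was not tested.

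**Figure D1:**
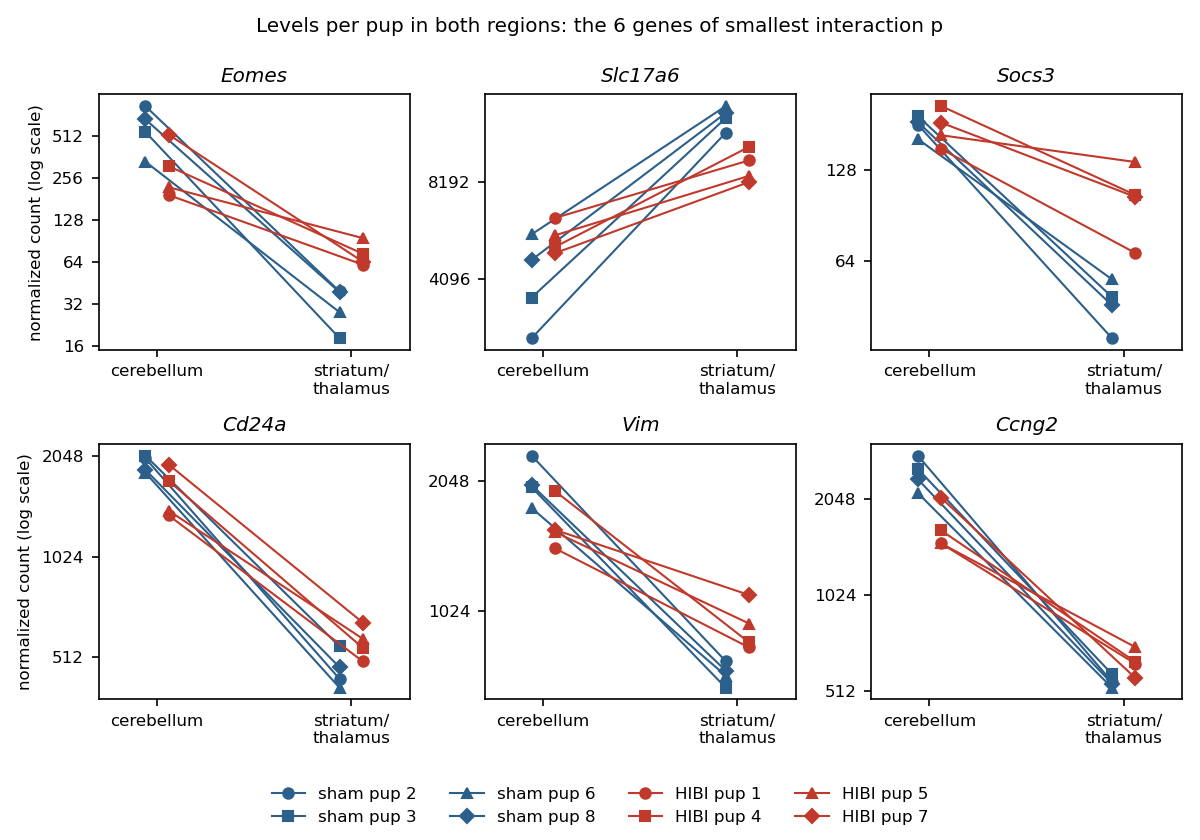
Normalized counts (log scale) of the 6 genes of smallest interaction p in the cerebellum and striatum/thalamus of each pup, with a line joining the 2 regions of a pup, HIBI pups in red and sham pups in blue. In all 6 panels the lines of the HIBI pups are less steep than those of the sham pups, as for Eomes, where the log2 difference between regions is -3.00 to -1.20 in HIBI and -4.83 to -3.53 in sham pups.

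Of the 20 genes of smallest interaction p, 11 had a positive and 9 a negative interaction, and the highest adjusted p among them was 0.177. All 20 had opposite signs of the HIBI effect in the 2 regions, against 40.8% of the 713 genes tested in both, a property that choosing genes by the difference favours. In 18 of the 20 the within-pup differences of the 2 arms were fully apart, as in 36 (4.87%) of all genes tested, and this too follows in part from the choice. All 11 positive genes were higher in the cerebellum of sham pups, with mean within-pup differences of -4.20 (Eomes) to -0.31 (Pdpn). All 9 negative genes were higher in the striatum/thalamus of sham pups, at 0.51 (Pik3cb) to 1.84 (Arhgap24). Choosing genes by the difference may favour this as well. The matching share over all 740 genes was not counted, so no conclusion is drawn from it. The part of the share of each region in the dissected tissue was not tested for any of the 20.

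Genes of cytokine feedback and of glia were among those with a positive interaction. Socs3, the feedback inhibitor of JAK-STAT cytokine signaling, held 68.3, 106, 136 and 105 normalized counts in HIBI and 35.7, 48.8, 55.8 and 45.8 in sham striatum/thalamus. In the cerebellum it held 151, 209, 167 and 184 in HIBI and 182, 194, 163 and 185 in sham pups. It rose 2.24-fold in the striatum/thalamus (adjusted p = 0.0217), whereas the cerebellum ratio was 0.986 with overlapping arms, and the interaction was 1.17 (SE 0.23, interval 0.66 to 1.69). Sham striatum/thalamus values of Socs3 lay close to the background limit of 34.9 to 43.5 counts of those libraries. With the mean of the negative controls subtracted the interaction was 1.71, so the size of the fold is uncertain. Vim, an intermediate filament of radial glia and reactive astrocytes, had 842 to 1114 counts in HIBI striatum/thalamus against 679 to 782 in sham pups, with the arms apart. Its cerebellum level lay between 1429 and 1940.2 in HIBI pups, against 1772 to 2344 in sham pups, and its interaction was 0.68 (SE 0.14, interval 0.36 to 1.0). Pdpn, a surface glycoprotein of reactive astrocytes, had an interaction of 0.53 (SE 0.12), and Slc1a3, the glutamate transporter GLAST of astrocytes and Bergmann glia, one of 0.56 (SE 0.15). Vim, Pdpn and Slc1a3 did not pass in either region.

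A pair of complement genes stood on opposite sides of 0. C3, the central complement component, had 86.8 to 117 counts in HIBI striatum/thalamus against 111 to 128 in sham pups, and 46.9 to 56.8 in HIBI cerebellum against 27.0 to 36.5 in sham pups. The arms overlapped in the striatum/thalamus and were apart in the cerebellum, where sham values lay near background, and the interaction was -0.81 (SE 0.18, interval -1.22 to -0.41). Serping1, the inhibitor that restrains the classical complement pathway, had an interaction of 0.61 (SE 0.16). Its striatum/thalamus level was 116 to 214 in HIBI and 92.7 to 107 in sham pups, with pup 7 highest, and its cerebellum arms overlapped. Tnfrsf1a, a receptor for TNF, had a value of 0.40 (SE 0.11) and did not pass in either region.

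Genes of cell cycle control and of immature neurons also had positive values. Ccng2, cyclin G2, which slows the cell cycle, held 561 to 701 counts in HIBI striatum/thalamus against 522 to 576 in sham pups, and 1486 to 2068 in HIBI cerebellum against 2143 to 2809.8 in sham pups. All 4 HIBI pups were below the sham pups in the cerebellum (log2 -0.56, SE 0.11, adjusted p = 0.0916), and the interaction was 0.77 (SE 0.16, interval 0.41 to 1.14). Trp73, a transcription factor of the p53 family, had a value of 0.96 (SE 0.26). Cd24a, a surface protein of immature neurons, had 497 to 649.6 counts in HIBI striatum/thalamus against 415 to 551 in sham pups, 1362 to 1934 in HIBI cerebellum against 1829 to 2058 in sham pups, and an interaction of 0.56 (SE 0.12). Its arms overlapped in each region while the within-pup differences were apart, at -1.66 to -1.27 in HIBI and -2.19 to -1.90 in sham pups.

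Among the genes with negative values were a trophic factor and signaling genes of neurons. Bdnf, the neurotrophin that supports neuron survival and synaptic strength, held 274, 207, 230.0 and 263 counts in HIBI and 336, 438, 406 and 341 in sham striatum/thalamus. In the cerebellum it held 166, 150.1, 169 and 125 in HIBI and 119, 111, 179 and 134 in sham pups. It fell in the striatum/thalamus to 64.3% of the sham level (adjusted p = 0.0237), had a log2 value of 0.18 (SE 0.18) in the cerebellum, and gave an interaction of -0.82 (SE 0.20, interval -1.27 to -0.37). Pik3cb, a catalytic subunit of phosphoinositide 3-kinase, was the 1 gene of 740 (0.135%) whose arms were apart in both regions in opposite directions, with 913 to 1043 in HIBI striatum/thalamus against 1116 to 1171 in sham pups and 872 to 941 in HIBI cerebellum against 774 to 862 in sham pups. Its interaction was -0.39 (SE 0.09, interval -0.60 to -0.19). Fgf13, an intracellular partner of neuronal sodium channels, had -0.52 (SE 0.12), Chst8, a sulfotransferase, -0.82 (SE 0.18), and Arhgap24, a GTPase-activating protein, -0.91 (SE 0.25). Iqsec1, an exchange factor for ARF GTPases, had -0.42 (SE 0.12). Asb2, a substrate receptor of a ubiquitin ligase, had -0.90 (SE 0.21) and lay near background in all 4 groups.

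Within single regions 20 of 732 genes (2.73%) passed in the striatum/thalamus, 15 higher and 5 lower in HIBI, and 3 of 714 (0.42%) passed in the cerebellum, 2 higher and 1 lower. No gene passed in both. The striatum/thalamus count was 56 without pup 4, 6 without pup 5 and 5 without pup 3, 6 or 8. These counts do not show that the effects differed: of the 20 genes that passed in the striatum/thalamus, 7 had an unadjusted interaction p under 0.05, and for 13 the 95% interval of the interaction included 0. The 7 were Eomes, Slc17a6, Socs3 and Bdnf, described above, with Islr2, Srxn1 and Lcn2. Islr2, a membrane protein of growing axons, rose in the striatum/thalamus, where it lay between 1021 and 1225 in HIBI pups and between 617 and 882 in sham pups, while the cerebellum arms overlapped, and its interaction was 0.70 (SE 0.20, interval 0.26 to 1.13). Srxn1, the antioxidant enzyme sulfiredoxin, fell to 85.0% of the sham level in the striatum/thalamus and had an interaction of -0.31 (SE 0.09). Lcn2, an acute-phase carrier of iron-binding compounds, rose 3.18-fold from values at background, with 57.2 to 115 in HIBI striatum/thalamus against 18.9 to 29.0 in sham pups. Its cerebellum levels were 86.3, 45.0, 44.3 and 31.6 in HIBI pups and 26.6 to 40.5 in sham pups, and the interaction of 1.10 had a wide interval (0.12 to 2.08).

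**Figure D2:**
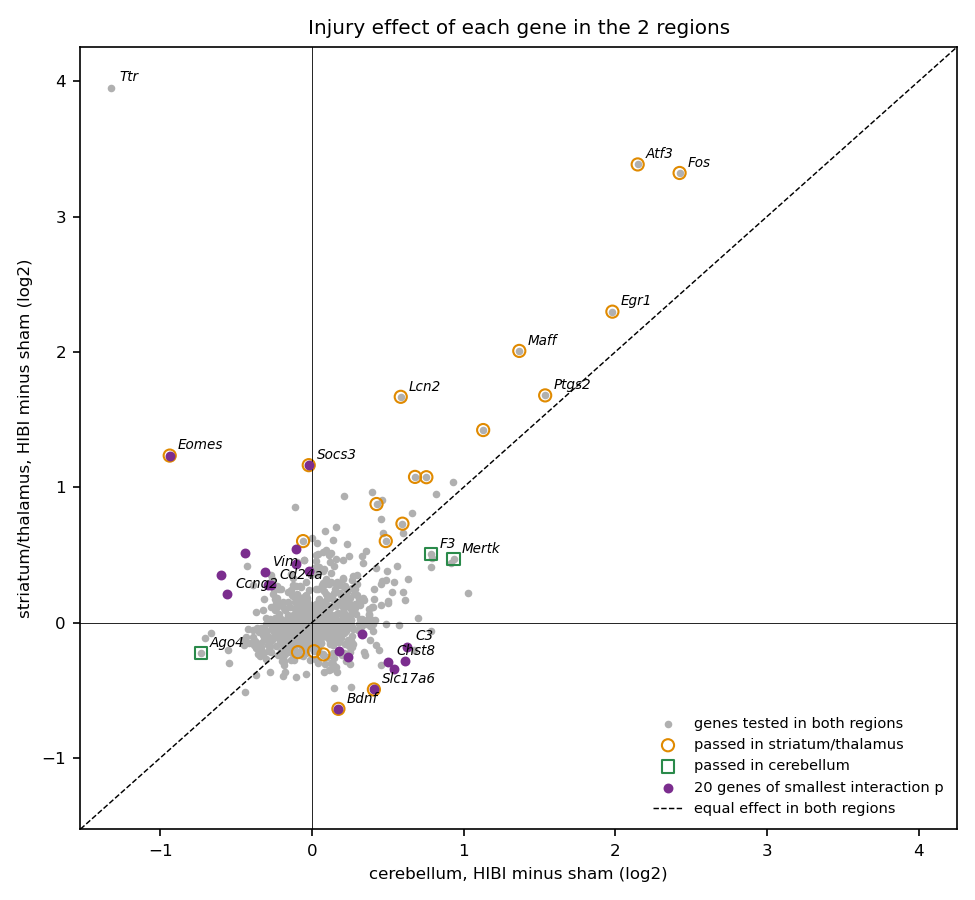
HIBI effect (log2, HIBI minus sham) of each gene tested in both regions, cerebellum on the x axis and striatum/thalamus on the y axis, with genes that passed in 1 region ringed, the 20 genes of smallest interaction p in purple and the line of equal effects dashed. Fos, Atf3, Egr1, Maff and Ptgs2 lie far above 0 on both axes, Eomes lies at -0.94 and 1.23, and Ttr, which did not pass, lies at -1.33 and 3.95.

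**Figure D3:**
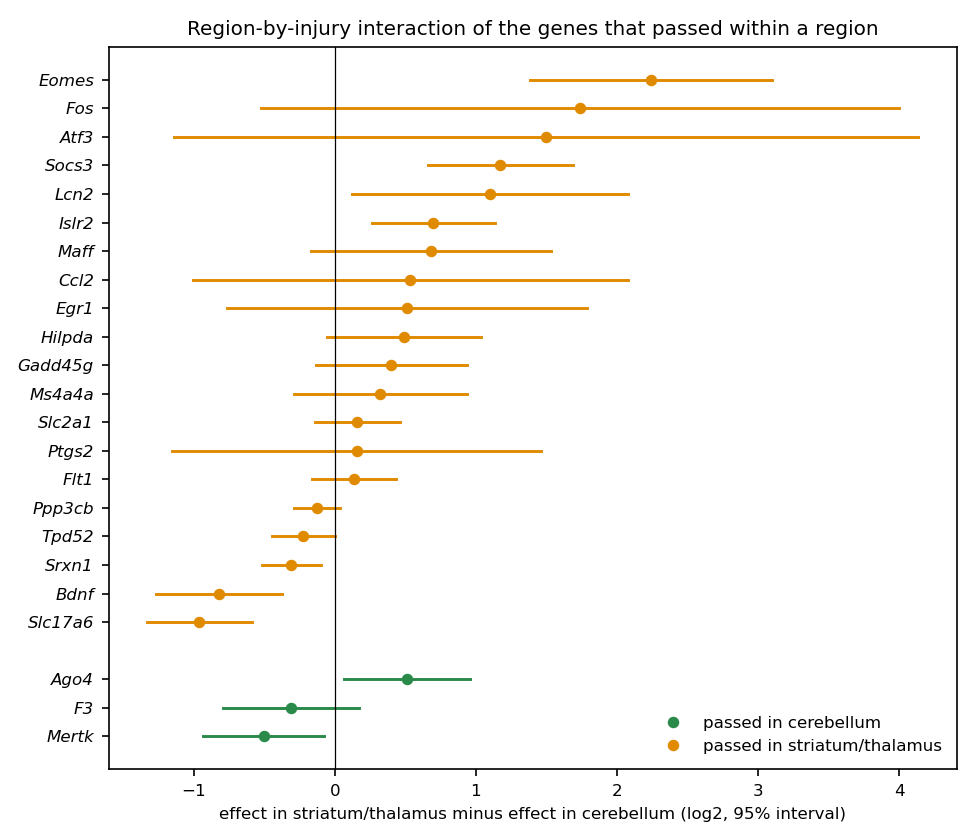
Interaction (log2, point) with its 95% interval (line) for the 20 genes that passed in the striatum/thalamus and the 3 that passed in the cerebellum. The intervals of Fos (-0.52 to 4.0) and Atf3 (-1.14 to 4.13) are the widest and include 0, while those of Eomes, Socs3, Lcn2, Islr2, Srxn1, Bdnf and Slc17a6 and, of the cerebellum genes, Mertk and Ago4 lie on 1 side of 0.

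The genes that rose most in the striatum/thalamus were immediate early genes. Their interaction intervals included 0, and their levels in the cerebellum differed widely among HIBI pups. Fos, a subunit of the transcription factor AP-1, held 1429.5, 4388, 5001 and 2269 counts in the striatum/thalamus of HIBI pups 1, 4, 5 and 7 against 225 to 427 in sham pups. In the cerebellum it held 4401, 1604, 308 and 311 in the same HIBI pups and 205 to 436 in sham pups. All 4 HIBI pups were high in the striatum/thalamus, but in the cerebellum pups 1 and 4 were high and pups 5 and 7 lay among the sham pups. Fos rose 10.01-fold in the striatum/thalamus (log2 3.32, SE 0.40, adjusted p = 0.00372), had a log2 value of 2.42 (SE 0.81, adjusted p = 0.241) in the cerebellum, and gave an interaction of 1.74 (SE 1.02) with the pup block and 0.92 with no block. Without pup 1, the HIBI pup with more Fos in the cerebellum than in the striatum/thalamus, the interaction was 2.68 (adjusted p = 0.0783), and without pups 4 and 5 it was 0.48.

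Pups 1 and 4 were also the highest in the cerebellum for Egr1, Atf3, Maff, Ptgs2 and Gadd45g. Unlike Fos, these genes had every HIBI pup above every sham pup there, narrowly so in Atf3. Egr1, an activity-induced zinc finger factor, held 2125, 1695, 610.1 and 425 counts in the cerebellum of HIBI pups 1, 4, 5 and 7 and 254 to 363 in sham pups, so that all HIBI pups were higher and pups 1 and 4 most. In the striatum/thalamus it held 1729, 4017, 4675 and 2008 in HIBI and 589 to 694 in sham pups, and the interaction was 0.51 (SE 0.58), or 0.33 with no block. Atf3, a stress-induced factor, reached 391 in the cerebellum of pup 1 and 39.0 to 75.1 in the other HIBI pups, against 75.0 to 534 in HIBI striatum/thalamus, with sham values of 12.4 to 38.4 near background in both regions. Maff, a small Maf factor, rose 4.02-fold in the striatum/thalamus (adjusted p = 0.000226) and was 63.8 to 157 in HIBI cerebellum against 34.5 to 48.0 in sham pups, where it did not pass (adjusted p = 0.0916) although its arms were apart. Its sham values in the striatum/thalamus, 42.4 to 44.8, also lay near background. Ptgs2, cyclooxygenase-2, had log2 effects of 1.68 and 1.54, with an interaction of 0.15 (interval -1.15 to 1.46). Its within-pup differences in HIBI pups ran from -1.18 to 1.57. Sham values of Ptgs2, 28.3 to 40.3 in the striatum/thalamus and 17.4 to 35.4 in the cerebellum, lay near background, so both folds are uncertain. Gadd45g, a growth arrest gene, had log2 effects of 1.08 in the striatum/thalamus and 0.68 in the cerebellum, with the arms apart in both. Of the 13 immediate early and activity genes, 11 had a positive interaction, against 407 of all 740, with a median of 0.40 against 0.03 over all genes. Among them 1 positive (Nptx1, a synaptic pentraxin, 0.85) and 1 negative (Bdnf) gene had an unadjusted p under 0.05 (15.4%, against 11.4% of all genes).

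**Figure D4:**
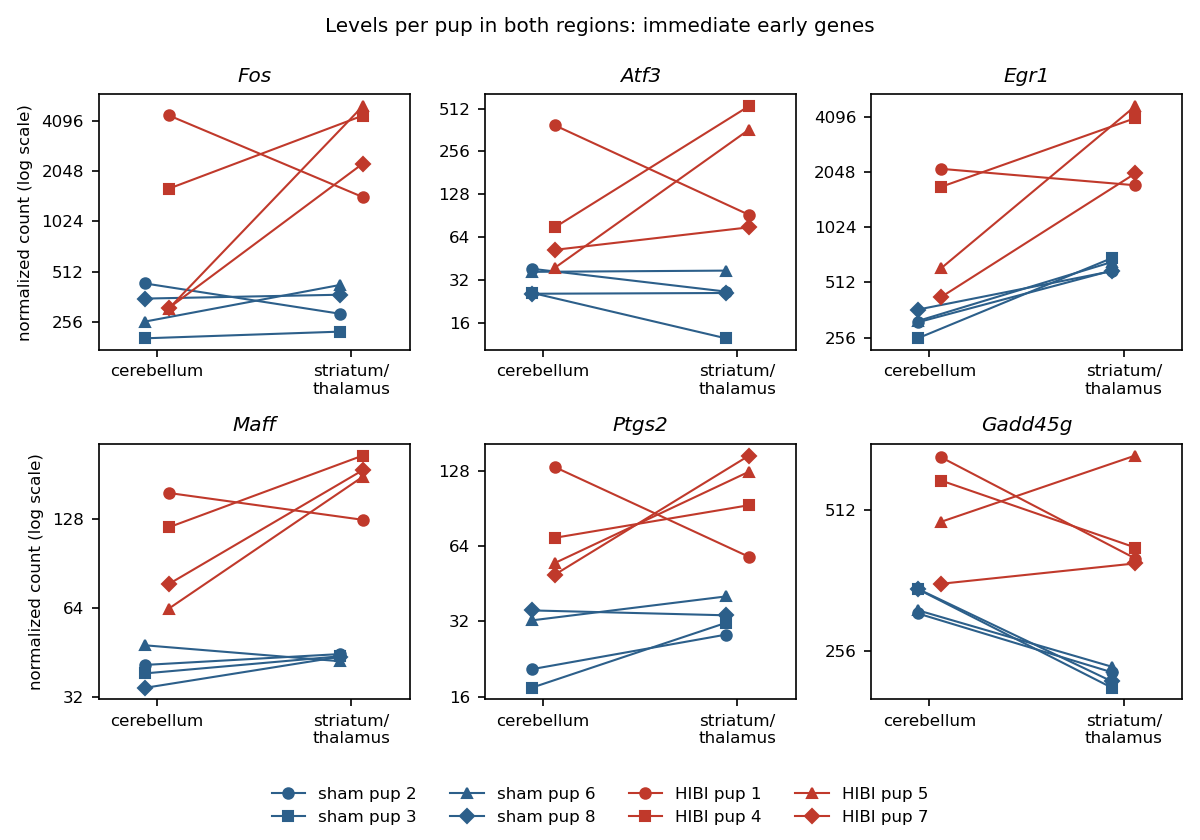
Normalized counts (log scale) of 6 immediate early genes in the cerebellum and striatum/thalamus of each pup, with a line joining the 2 regions of a pup, HIBI pups in red and sham pups in blue. HIBI pup 1 falls from cerebellum to striatum/thalamus in all 6 panels (Fos 4401 to 1429.5), whereas pup 5 rises in all 6 (Fos 308 to 5001).

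Fos and Bdnf are both genes that neuronal activity is known to induce, and they moved in opposite directions in the striatum/thalamus. The 250 bases before 1 annotated start of each gene are shown for this reason, from RefSeq on build GRCm38.p6, plus strand, at chr12:85473640-85473889 for Fos and chr2:109674450-109674699 for Bdnf. Capitals mark TGACG, the shortened site of the cAMP response element bound by CREB, in Fos, and CACGT, the reverse complement of ACGTG, the core letters of the hypoxia response element, in Bdnf.
Fos: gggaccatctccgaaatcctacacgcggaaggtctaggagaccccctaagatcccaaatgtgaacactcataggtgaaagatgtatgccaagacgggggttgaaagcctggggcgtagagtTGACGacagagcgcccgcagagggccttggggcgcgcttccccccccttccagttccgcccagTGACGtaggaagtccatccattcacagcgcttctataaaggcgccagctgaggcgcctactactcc
Bdnf: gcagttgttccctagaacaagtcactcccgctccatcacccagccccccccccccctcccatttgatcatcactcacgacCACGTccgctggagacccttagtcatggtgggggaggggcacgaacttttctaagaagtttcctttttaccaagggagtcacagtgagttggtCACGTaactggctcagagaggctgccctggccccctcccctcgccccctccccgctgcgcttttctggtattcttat
Fos holds 2 copies of TGACG and none of ACGTG in this window, and Bdnf holds 2 of ACGTG and none of TGACG; Bdnf has several other promoters that were not examined. On both strands, TGACG was found in 5 of the 17 striatum/thalamus-passing genes with a sequence, in 1 of the 16 such genes among the 20 of smallest interaction p, and in 17.9% of 27025 promoters. ACGTG was found in 3, in 3 and in 16.6%, the palindrome TGACGTCA, which contains TGACG, in 1, in 0 and in 1.62%, and the AP-1 letters TGANTCA in 1, in 0 and in 6.87%. Among the 583 tested genes with a sequence, the shares were 19.0% for TGACG, 20.9% for ACGTG, 2.40% for TGACGTCA and 6.69% for TGANTCA. Of the striatum/thalamus-passing genes with ACGTG, Gadd45g and Slc2a1 rose and Bdnf fell. Of those with TGACG, Fos, Atf3, Hilpda and Flt1 rose and Srxn1 fell. A match is a run of letters and shows no binding, and its part in the direction of any of these genes was not tested.

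Of 12 hypoxia and glycolysis targets, 3 rose in the striatum/thalamus, where 2.73% of all genes passed, and their cerebellum effects had the same sign. Slc2a1, the glucose transporter GLUT1, held 587 to 734 counts in HIBI striatum/thalamus against 381 to 409 in sham pups, and 427 to 739 in HIBI cerebellum against 329 to 385 in sham pups, with the arms apart in both regions. Its effects were 0.73 (SE 0.08, adjusted p = 0.00294) and 0.60 (SE 0.18, adjusted p = 0.224), and the interaction was 0.16 (interval -0.14 to 0.46). Flt1, a receptor of VEGF, had 0.60 and 0.49 with an interaction of 0.13 (interval -0.16 to 0.43), and Hilpda, a lipid droplet protein, 0.88 and 0.43 with 0.49 (interval -0.05 to 1.03). These 3 passed in the striatum/thalamus and did not pass in the cerebellum. Of the list, 9 genes had a positive interaction, against 407 of all 740, with a median of 0.08 (6 and -0.02 with reference-gene scaling). Not all members rose. Ccng2, described above, is also on this list and had its largest interaction in size, 0.77 with an unadjusted p under 0.05. In the cerebellum Ccng2 was lower in every HIBI pup (1486 to 2068) than in every sham pup (2143 to 2810). Bnip3, a mitochondrial death and mitophagy gene, had -0.21 (SE 0.09). Its mean in the striatum/thalamus was 3689 in HIBI and 3908 in sham pups, with overlapping arms. Kdm3a, a histone demethylase, had 0.29 (SE 0.18).

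The remaining genes that passed in the striatum/thalamus had intervals of the interaction that included 0. Ccl2, a monocyte chemokine, followed the pup pattern of Fos, with 192, 95.9, 32.8 and 35.4 counts in the cerebellum of HIBI pups 1, 4, 5 and 7 against 33.5 to 47.2 in sham pups, and an interaction of 0.54 (interval -1.0 to 2.08), or 0.31 with no block. Ms4a4a, a macrophage membrane protein, was 59.4 to 101 in HIBI striatum/thalamus against 28.3 to 45.5 in sham pups and 56.7 to 82.0 in HIBI cerebellum against 38.4 to 46.3 in sham pups, apart in both regions, with 0.32 (interval -0.29 to 0.93). Ppp3cb, a catalytic subunit of calcineurin, and Tpd52, a membrane traffic protein, fell to 86.0% and 86.4% of the sham level in the striatum/thalamus and had interactions of -0.13 (interval -0.29 to 0.04) and -0.22 (interval -0.45 to 0.00).

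Of the 3 genes that passed in the cerebellum, 2 had an unadjusted interaction p under 0.05. Mertk, a receptor for the engulfment of dying cells, held 522, 412, 605 and 469.8 counts in HIBI cerebellum against 211 to 306 in sham pups and rose 1.91-fold (adjusted p = 0.0358). In the striatum/thalamus it held 803, 331, 525 and 553 in HIBI and 319 to 519 in sham pups, with pup 4 low and the arms overlapping, and the interaction was -0.50 (SE 0.19, interval -0.93 to -0.07). The Mertk interaction was -0.17 without pups 4 and 5 and -0.69 without pup 1. Ago4, an Argonaute protein of the microRNA machinery, fell to 60.3% of the sham level in the cerebellum (adjusted p = 0.0222), with 78.0 to 96.8 in HIBI and 136 to 147 in sham pups. Its striatum/thalamus level was 62.2 to 85.6 in HIBI and 71.8 to 108 in sham pups, and the interaction was 0.51 (SE 0.20, interval 0.07 to 0.95). F3, tissue factor, which starts coagulation, rose 1.72-fold in the cerebellum, had 1.42-fold in the striatum/thalamus with pup 4 below the sham pups at 875, and gave an interaction of -0.31 (interval -0.79 to 0.17). These calls were not stable, as leaving out any 1 pup other than pup 7 left no gene past the threshold in the cerebellum.

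Oligodendrocyte genes had mostly negative interactions, and pup 4 stood apart in them. Of 22 such genes tested, 19 had a negative interaction, against 333 of all 740 genes, with a median of -0.43 (21 and -0.52 with reference-gene scaling). An unadjusted p under 0.05 was found in 5 negative and 1 positive gene (27.3%, against 11.4% of all genes), and none passed in either region. Opalin, a membrane protein of mature oligodendrocytes, held 138, 269, 169 and 65.2 counts in HIBI striatum/thalamus against 163 to 333 in sham pups, and 422 to 698 in HIBI cerebellum against 391 to 566 in sham pups. Its interaction was -0.81 (SE 0.30), and those of Myrf and Sox10, transcription factors of the lineage, were -0.52 (SE 0.20) and -0.47 (SE 0.19). Tmem64, a membrane protein on the same list, had 0.37 (SE 0.15). The within-pup difference between regions, averaged over the 22 genes and relative to sham pups, was -0.74, -0.51 and -0.52 in HIBI pups 1, 5 and 7 but 0.31 in pup 4, and -0.20 to 0.28 in sham pups. Without pup 4, 30 genes passed the interaction, of which 11 were on the oligodendrocyte list and 12 among the 20 genes of smallest p, with Opalin at -1.15 (adjusted p = 0.0334). No other single pup had so large an effect on the count, which was 0 to 2 without each of the others.

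**Figure D5:**
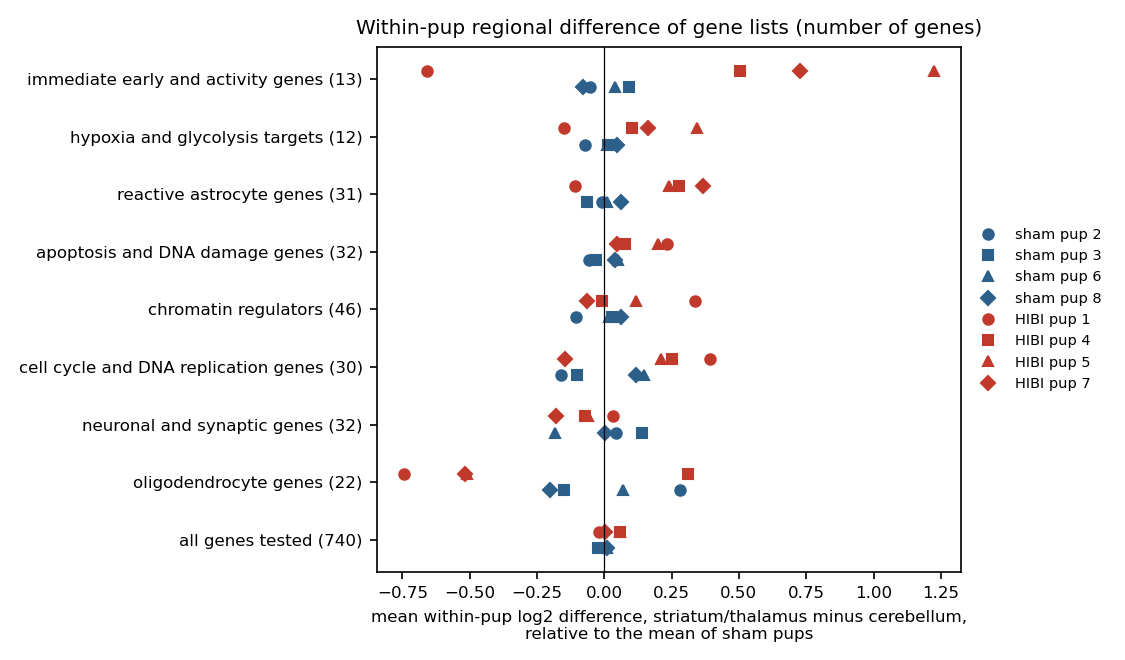
Within-pup log2 difference (striatum/thalamus minus cerebellum) averaged over the genes of each list and set to 0 at the mean of sham pups, 1 point per pup, HIBI in red and sham in blue. HIBI pup 4 lies at 0.31 for oligodendrocyte genes while the other HIBI pups lie at -0.74 to -0.51, and HIBI pup 1 lies at -0.66 for immediate early genes while the others lie at 0.51 to 1.23.

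Cell cycle and DNA replication genes had small positive values: 29 of 30 were above 0, with a median of 0.18, while 407 of all 740 genes were above 0. None of the 29 had an unadjusted p under 0.05, and the 1 gene below 0, Cdkn1a, the p53 target that arrests the cycle, had -0.35 (SE 0.14). Timeless, of the replication fork, and Cks1b, a subunit of cyclin-dependent kinases, had 0.34 (SE 0.19) and 0.26 (SE 0.15). The median effect of the list was -0.24 in the cerebellum and -0.04 in the striatum/thalamus. The averaged within-pup difference of this list was 0.39, 0.25 and 0.21 in HIBI pups 1, 4 and 5 but -0.15 in pup 7. In sham pups it was -0.16 to 0.15, so the arms overlapped. Scaling on the 13 reference genes, which moved the median interaction of all genes to -0.06, left 20 of the 30 above 0, with a median of 0.09.

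Reactive astrocyte genes were above 0 in 23 of 31 cases, against 407 of all 740 genes, with a median of 0.26. At an unadjusted p under 0.05 there were 6 positive and 1 negative (22.6%, against 11.4% of all genes), and 2 of the list rose in the striatum/thalamus (Lcn2 and Ptgs2), where 2.73% of all genes passed. Cp, ceruloplasmin, and Tm4sf1, a membrane protein, both had 0.48 (SE 0.16 and 0.17). The averaged within-pup difference of this list was -0.11 in HIBI pup 1, 0.24 to 0.37 in the other HIBI pups and -0.06 to 0.06 in sham pups. Of 7 resting astrocyte markers 5 were above 0, against 407 of all 740 genes, with a median of 0.05, and 3 were above 0 with reference-gene scaling. With TMM factors Sox9, a glial transcription factor, had 0.21 (SE 0.10), Egfr, the receptor for epidermal growth factor, 0.33 (SE 0.18) and Aldh1l1, an astrocyte enzyme, 0.05 (SE 0.10).

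Neuronal and synaptic genes were below 0 in 20 of 32 cases, against 333 of all 740 genes, with a median of -0.09. An unadjusted p under 0.05 was found in 8 negative and 2 positive genes (31.25%), against 44 and 40 of all 740 (11.4%). The positive pair were Islr2 and Gria1, an AMPA receptor subunit, with 0.45 (SE 0.15). Gria1 held 2758, 2094, 2663 and 2711 in HIBI striatum/thalamus against 1897 to 2134 in sham pups, where pup 4 lay with the sham pups.

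Immune lists were more evenly split. Of 22 microglia and macrophage markers, 10 were above and 12 below 0, with a median of -0.02, where 407 of all 740 genes were above 0. Only 1 had an unadjusted p under 0.05 (4.5%, below the 11.4% of all genes). It was Lyn, a Src-family kinase, with 0.37 (SE 0.16), or 0.17 without pups 4 and 5. Gpr34, a microglial receptor, had -0.32 (SE 0.18), Inpp5d, the phosphatase SHIP1, -0.45 (SE 0.25) and Cx3cr1, the fractalkine receptor, -0.24 (SE 0.14). The summed level of the list was 5814 to 7179 in HIBI striatum/thalamus against 5842 to 6661 in sham pups, and 4729 to 5855 in HIBI cerebellum against 3741 to 5139 in sham pups, overlapping in both. Of 14 complement and Fc receptor genes, 9 were above 0 (5 with reference-gene scaling), against 407 of all 740, with 3 positive and 1 negative at an unadjusted p under 0.05 (28.6%, against 11.4% of all genes), the former including Fcgr2b, an inhibitory Fc receptor, at 0.59 (SE 0.21) and C4a, a complement gene, at 0.66 (SE 0.24). Of 37 genes of interleukin-1, TNF and NF-kappaB signaling 20 were above 0, against 407 of all 740. The 3 with an unadjusted p under 0.05 (8.1%, below the 11.4% of all genes) were Socs3, Tnfrsf1a and Nfkb2, an NF-kappaB subunit, at 0.47 (SE 0.21). Traf1, an adaptor of TNF receptors, had 0.45 (SE 0.21).

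NRF2 antioxidant genes were split evenly, 5 above and 5 below 0, with a median of -0.08 (3 above 0 with reference-gene scaling). Nfe2l2, which encodes the factor NRF2 itself, had 0.49 (SE 0.19), whereas Sod2, the mitochondrial superoxide dismutase, had -0.27 (SE 0.08), the same sign as Srxn1. Prdx1, a peroxiredoxin, had -0.27 (SE 0.18).

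The panel held 1 marker of the choroid plexus, Ttr, the thyroid hormone carrier that this tissue makes in large amounts. Its striatum/thalamus level was 3153 and 2439 counts in HIBI pups 4 and 5 and 69.9 to 149 in the other 6 pups, and its cerebellum level ranged from 139.7 to 8382 with sham pup 6 lowest. Its interaction of 3.29 had an SE of 2.18 and was 5.29 with no block. Without pups 4 and 5 the interaction of Ttr was -0.16, and 4 genes passed (Mog, Opalin, Slc1a3 and Vim); Mog, a myelin surface protein, was named after its values were seen. The values of Eomes, Slc17a6 and Socs3 without these pups were 1.85, -1.04 and 1.0, and the part of Ttr-expressing tissue in the other results was not tested.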

How the data were processed

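RNA of 16 libraries was hybridised by the authors to the nCounter Mouse Neuroinflammation probes. The deposited counts were raw barcode counts of 784 probes (757 endogenous, 13 reference, 6 positive and 8 negative controls), with no normalization or background subtraction; an authors' table of group means, folds and p-values made in nSolver was read for probe class and accession only. Both regions of a subject number are from the same pup, per the labels. Genes that reached 20 counts in 4 or more of the fitted libraries were tested in R 4.3.3 with edgeR 4.0.16 (quasi-likelihood F test, two-sided, TMM, Benjamini-Hochberg), with pup as a block for the interaction and no block within a region. Scripts were tested on simulated data. limma 3.58.1, DESeq2 1.42.0, other scalings and filters and left-out pups were alternatives. Within-pup log2 differences used a pseudocount of 1 and exact permutation over pups.

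The text names the 20 genes of smallest interaction p, those that passed within a region and up to 4 members of smallest p per described list; some genes that this rule selects are not reported here. Members and lists were chosen with earlier results of these data known. Of all 740 genes, 583 had a promoter sequence. Deviations from group means correlated at -0.01 to 0.57 between the 2 libraries of a pup, and for pups 1, 4, 5 and 6 this lay below the highest correlation with another pup, so the pairing rests on the labels. The 24 pairs of libraries of a group correlated at r of 0.975 to 0.994 and differed by more than counting error.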

Additional observations from a re-analysis of the deposited data

Results flagged for a closer look

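In the named genes, 13 of 284 groups of 4 libraries held a library far from the other 3, where about 14.2 are due by chance. In the cerebellum of HIBI pup 1, Atf3 was at 391, Hilpda at 283.9 and Slc2a1 at 739 normalized counts, and all 3 were above the other HIBI pups. In the striatum/thalamus of HIBI pup 4, Gria1 was at 2094 and Kdm3a at 488, below the other HIBI pups. In HIBI pup 5 Gadd45g was high at 670.2, and in HIBI pup 7 Serping1 was high at 214 in the striatum/thalamus and Cks1b at 629 in the cerebellum. Among sham libraries, C3 (128) and Ttr (149) were high in the striatum/thalamus of pup 8, Srxn1 (1407) and Tpd52 (2012) in the cerebellum of pup 6, and Lyn (269.6) in the cerebellum of pup 2.

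Pik3cb had every HIBI pup below the sham pups in the striatum/thalamus and above them in the cerebellum. Its interaction of -0.39 did not pass after adjustment (adjusted p = 0.116).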

How the results depend on the processing

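The interaction count of 0 stayed at 0 with limma-voom, limma on within-pup differences, the robust fit, reference-gene scaling, subtracted background, no filter and a filter of 50 counts. It was 15 with DESeq2, 6 with all 24 libraries and 4 without pups 4 and 5. Leaving out 1 pup gave 0 to 30 (30 without pup 4, 2 without pup 7, 1 without pup 6), and 50 to 117 genes at an unadjusted p under 0.05. Without the replicate block (pup), 4 genes passed (C3, Ccng2, Pik3cb and Socs3). In the striatum/thalamus the count of 20 became 42 with DESeq2, 50 without pups 4 and 5 and 5 to 56 without 1 pup (56 without pup 4, 6 without pup 5 and 5 without pup 3, 6 or 8). In the cerebellum the count of 3 became 15 with DESeq2, 5 with reference-gene scaling, 0 without pups 4 and 5 and 0 to 7 without 1 pup.

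Reference-gene scaling raised the median cerebellum effect of all genes from 0.00 to 0.12 and took the median interaction from 0.03 to -0.06. The share of positive values among genes with an unadjusted p under 0.05 went from 47.6% to 19.6% for the interaction and from 53.0% to 89.0% in the cerebellum.

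Of 1345 alternative values of the 71 named genes, 13 changed sign, in 8 genes, none among the 20 of smallest p. Without pups 4 and 5 these were Ttr (-0.16), Atf3 (-0.66), Flt1 (-0.0092), Slc17a7 (-0.078), Egr1 (-0.091), Ccl2 (-0.19) and Ptgs2 (-0.16). Ptgs2 was also -0.12 with background subtracted and -0.25 to 0.74 without 1 pup (below 0 without pup 5, 7 or 8), and Aldh1l1 was -0.049 with reference-gene scaling and -0.025 to 0.089 without 1 pup (below 0 without pup 1). The causes were not tested. Genes near the negative control level, such as Lcn2, Atf3, Ptgs2, Maff and, in the striatum/thalamus, Socs3, have uncertain folds.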
